A study of Homo sapiens with 6 samples.

Results

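The 10 genes described here encode proteins that regulate the decay of messenger RNAs or contact its machinery. The set holds the CCCH zinc finger proteins ZFP36, ZFP36L1 and ZFP36L2, the stabilizing protein ELAVL1, the BTG and TOB proteins (BTG1, BTG2, BTG3, TOB1 and TOB2) and PNRC1. The genes were taken by symbol, 10 of the 18164 genes with a distinct Ensembl ID in the deposited table, and each symbol matched 1 row. Expression was measured as TPM, a transcript abundance corrected for transcript length and library total, in a commercial suspension line of HEK293. This established line came from human embryonic kidney and carries a piece of the adenovirus genome. Transfected cells had received a pair of plasmids with a polymer reagent, so that they produced adeno-associated virus (AAV), and untransfected cells had received PBS in place of DNA and reagent. Both groups were sampled 18 h after transfection, with 3 libraries each, 6 in all. The controls received neither plasmid nor reagent, so effects of the DNA, the polymer and vector production cannot be told apart.

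Many short-lived mRNAs carry AU-rich elements in their 3′ untranslated region. Proteins of the ZFP36 family bind these elements and recruit the CCR4-NOT deadenylase, which removes the poly(A) tail, after which the mRNA loses its cap and is degraded. ELAVL1, also called HuR, binds AU-rich and U-rich elements and mostly stabilizes its targets. BTG and TOB proteins are antiproliferative adaptors whose shared domain contacts the catalytic CNOT7 and CNOT8 subunits of CCR4-NOT. TOB proteins also bind the poly(A)-binding protein, and BTG1 and BTG2 promote deadenylation of mRNAs more generally. PNRC1, a nuclear receptor coregulator, can bring the decapping enzyme to the nucleolus.

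In the 1 annotated transcript searched per gene, a shared sequence feature separates the genes for AU-rich element binding proteins from the others of the set. The nonamer TTATTTATT (written as DNA, the core element that ZFP36 proteins recognize) occurs in the 3′ untranslated region of ZFP36, ZFP36L1, ZFP36L2 and ELAVL1, 1 copy in each, and in 0 of the other 6 members. Of 12702 tested protein-coding genes with an annotated 3′ untranslated region, 8.73% hold at least 1 copy. The regions searched ran from 713 (ZFP36) to 4904 bases (ELAVL1) in the 4 genes with a copy. In the other 6 they ran from 440 (BTG3) to 3802 bases (BTG1), and the part of length was not tested. The 4 sites are shown with flanking bases, as annotated on GRCh38 by GENCODE release 29, because ZFP36 proteins are known to act on mRNAs with such elements, their own included. Capitals mark the nonamer.
ZFP36: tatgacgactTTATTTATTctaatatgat
ZFP36L1: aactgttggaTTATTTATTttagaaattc
ZFP36L2: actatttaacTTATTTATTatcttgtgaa
ELAVL1: atttatgtatTTATTTATTgaagtgtgaa
The nonamers begin at bases 507, 1438, 853 and 1637 of the 3′ untranslated regions of ZFP36, ZFP36L1, ZFP36L2 and ELAVL1. The shorter ATTTA pentamer, which most tested genes share (70.9% of the 12702), occurs 5, 8, 5 and 13 times in these 4 genes, 2 to 5 times in the BTG and TOB genes and 0 times in PNRC1. A match is a description of the sequence and not evidence of binding.

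Libraries of a group resembled each other more than those of the other group, with Pearson r across genes of 0.9918 to 0.9948 within and 0.9757 to 0.9824 between groups. On the first principal component, with 63.7% of the variance, the groups lay apart. The second, with 16.6%, set transfected replicate 1 and untransfected replicate 3 apart. These 2 libraries also had the highest share of TPM from mitochondrially encoded genes in their groups, 31.6% and 37.6%, against 28.4% to 29.1% in the other transfected and 31.3% to 32.4% in the other untransfected libraries. TPM keep no record of depth, so no counting interval can be given. Of 7 genes known to be active in HEK293, VIM, KRT8, KRT18, NEFL and NEFM were at 11.6 TPM or more in each library, PAX2 at 3.85 to 5.23 TPM and LHX1 at 0.33 to 0.57 TPM. Of the 6 that could be tested, VIM (log2 fold 0.39, adjusted p = 0.00215 in limma), NEFM (0.39, 0.0123) and NEFL (0.19, 0.0320) were higher in transfected cells, and their part in the results was not tested. The NEFL call was lost after median-ratio scaling (0.0915) and quantile normalization (0.206). It was also lost without any 1 library other than untransfected replicate 3 (0.0582 to 0.115). NEFM lost its call without transfected replicate 3 (0.0512). Of 12 markers of other cell types 4 were listed, and their summed level was 14.7 to 16.6 TPM in transfected and 16.3 to 17.6 TPM in untransfected libraries, most of it COL1A1.

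In transfected cells ZFP36 was 1.70-fold higher than in untransfected cells, BTG1 1.28-fold and ZFP36L2 1.21-fold. BTG2 was at 0.852 of its untransfected level. The other 6 members, ZFP36L1, ELAVL1, BTG3, TOB1, TOB2 and PNRC1, did not pass the test. All 10 members passed the filter on low values (1 TPM or more in 3 libraries), and 3 were thus higher and 1 lower at an adjusted p below 0.05 (limma on log2(TPM + 1), two-sided, Benjamini-Hochberg over 16145 genes). Among all tested genes 20% were higher and 10.2% lower, 30.2% in all, so the members' count was near the background. Groups did not overlap for 5 members (all tested genes, 46.5%), 3 with all transfected values above (29.2%) and 2 with all below (17.3%). The median log2 fold of the members was 0.08 and that of all tested genes 0.05. Of all genes that passed, 66.3% were higher on deposited TPM, 51.1% after median-ratio scaling, 50.3% after quantile normalization and 45.9% when TPM were rescaled with mitochondrial genes and the 20 most abundant left out. Nothing in the labels says that the 3 libraries of a group came from separate cultures, so the p-values measure the spread between libraries, which may be technical. In bulk cultures, fewer cells with an mRNA and less of it per cell cannot be told apart.

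**Figure D1:**
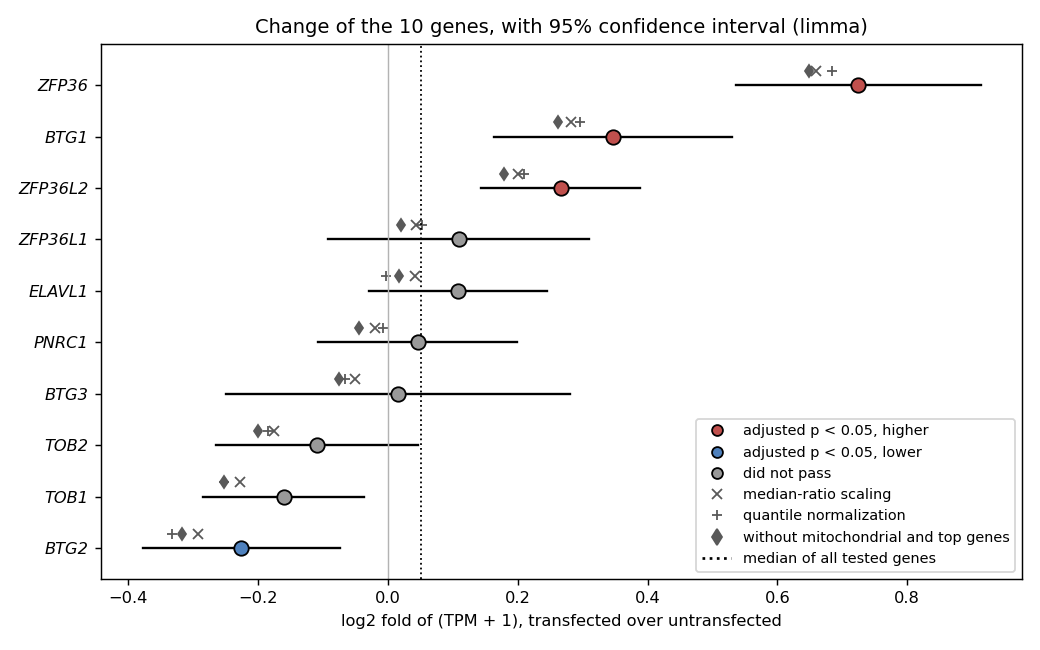
Log2 fold of (TPM + 1) of the 10 genes, transfected over untransfected, with the 95% confidence interval of the limma fit as a line and the value under 3 other scalings above it. ZFP36 stands at 0.72 and apart from the other members, and other scalings move each gene to the left by a similar step.

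ZFP36, also called tristetraprolin (chromosome 19, 39406813 to 39409412), is the member of its family best known as an immediate-early gene. Gene positions here and for the other members are on GRCh38 from GENCODE release 29. Its level was 24.96, 25.23 and 22.56 TPM in transfected replicates 1 to 3 and 13.06, 14.48 and 15.35 TPM in untransfected replicates 1 to 3. Every transfected library lay above every untransfected one, by at least 7 TPM. The log2 fold was 0.72 (SE 0.082, adjusted p = 0.000906 in limma, higher in 3 of 3 libraries), above the signed log2 fold of 96.9% of tested genes. The call held under each of the 16 alternatives tried, with a log2 fold between 0.60 and 0.77.

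ZFP36L2 (chromosome 2, 43222402 to 43226609), a paralog with the same pair of zinc fingers, varied least among the members. It was at 38.31, 37.89 and 38.24 TPM in transfected and 31.43, 31.39 and 31.84 TPM in untransfected replicates 1 to 3. The coefficient of variation within groups was under 1%, so a difference of about 7 TPM separated the groups cleanly. The log2 fold was 0.27 (SE 0.053, adjusted p = 0.00806 in limma). This call too held under each of the 16 alternatives, with a log2 fold between 0.18 and 0.27 and an adjusted p between 0.00658 and 0.0479.

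ZFP36L1 (chromosome 14, 68787660 to 68796253), the third paralog, was at 39.39, 32.45 and 31.92 TPM in transfected and 31.75, 30.87 and 32.96 TPM in untransfected replicates 1 to 3. Only transfected replicate 1, 1 of the libraries apart on the second component, was above the untransfected range. The log2 fold of 0.11 (95% interval -0.09 to 0.31) did not pass (adjusted p = 0.382 in limma).

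Because TPM are per length, the 3 paralogs can be set beside each other. Their summed level was 102.7, 95.6 and 92.7 TPM in transfected and 76.2, 76.7 and 80.2 TPM in untransfected replicates 1 to 3, so each transfected sum exceeded each untransfected one. ZFP36 made up 25.0% ± 1.20 (SD, n = 3) of the family in transfected and 18.4% ± 1.09 in untransfected cells, ZFP36L1 35.6% ± 2.42 and 41.0% ± 0.717, and ZFP36L2 39.4% ± 1.97 and 40.6% ± 0.790. The shares of ZFP36 and ZFP36L1 did not overlap between groups, and those of ZFP36L2 did. ZFP36 was the scarcest paralog in all 6 libraries. These shares were computed over chosen members and were not tested.

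**Figure D2:**
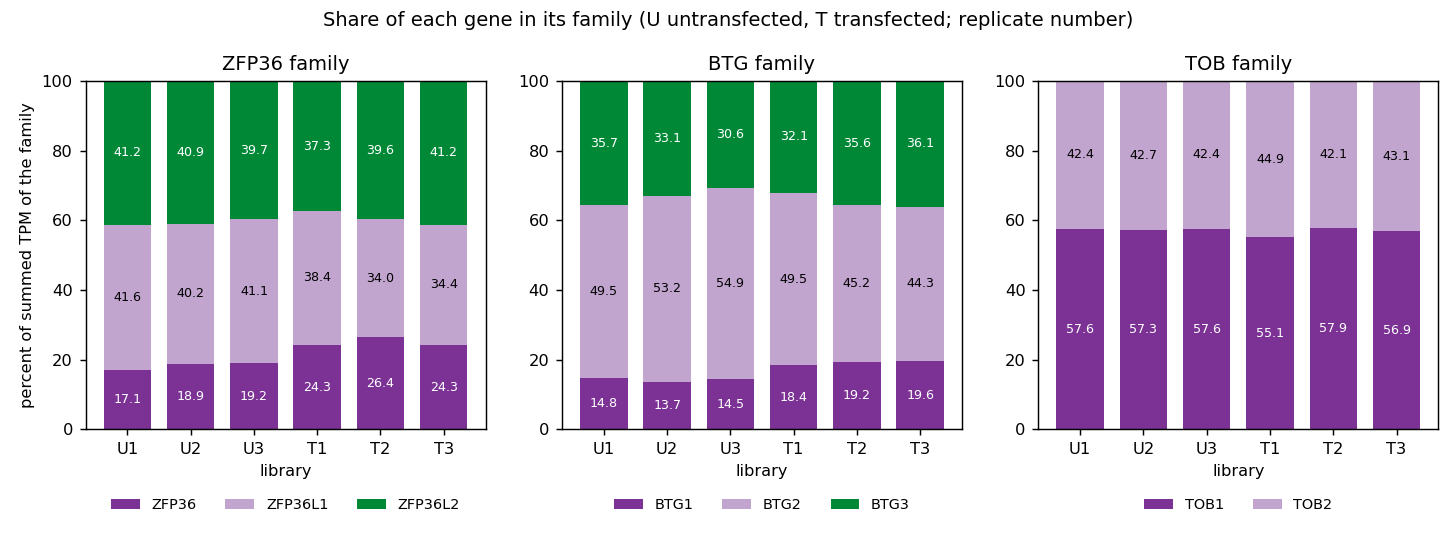
Percent of the summed TPM of each family contributed by its genes, for each library. ZFP36 takes 17.1% to 19.2% of its family in untransfected and 24.3% to 26.4% in transfected libraries, and BTG1 takes 13.7% to 14.8% and 18.4% to 19.6% of its own.

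ELAVL1 (chromosome 19, 7958579 to 8005659), whose product competes with decay factors for AU-rich mRNAs, was the most abundant member in transfected cells. It was at 79.69, 78.67 and 82.34 TPM in transfected and 74.21, 78.68 and 70.35 TPM in untransfected replicates 1 to 3. The groups met at a single value, transfected replicate 2 lying 0.01 TPM under untransfected replicate 2. The log2 fold of 0.11 (95% interval -0.03 to 0.25) did not pass (adjusted p = 0.204 in limma), and it was -0.0024 after quantile normalization.

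BTG1 (chromosome 12, 92140278 to 92145897) encodes an antiproliferative protein that is abundant in quiescent lymphocytes. Its level was 25.23, 28.01 and 28.77 TPM in transfected and 22.44, 21.85 and 19.59 TPM in untransfected replicates 1 to 3. All transfected values were higher, the closest libraries of the groups being 25.23 and 22.44 TPM. The log2 fold was 0.35 (SE 0.080, adjusted p = 0.0138 in limma). The call was lost without transfected replicate 2 (adjusted p = 0.0573) or transfected replicate 3 (0.0619). LINC01619, which overlaps BTG1 on the same strand, was at 0.36 to 0.60 TPM in transfected and 0.96 to 1.15 TPM in untransfected libraries. It was far under BTG1 and opposite in direction, but stayed under the filter on low values and was not tested. The overlap spans 2637 bases, and reads shared between these genes would make the BTG1 value uncertain.

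BTG2 (chromosome 1, 203305491 to 203309602), a p53-inducible and immediate-early antiproliferative gene, went the other way. It was at 67.99, 65.79 and 65.18 TPM in transfected and 75.08, 84.63 and 73.85 TPM in untransfected replicates 1 to 3. All transfected values were lower, and untransfected replicate 2 was the highest by over 9 TPM. The log2 fold was -0.23 (SE 0.066, 95% interval -0.38 to -0.07, adjusted p = 0.0345 in limma). This call did not survive leaving out any 1 library other than untransfected replicate 3, with adjusted p of 0.0611, 0.105 and 0.119 without transfected replicates 1, 2 and 3 and 0.0645 and 0.0996 without untransfected replicates 1 and 2.

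BTG3 (chromosome 21, 17593653 to 17612947), a further antiproliferative member of the family, was at 44.03, 51.89 and 53.06 TPM in transfected and 54.05, 52.61 and 41.20 TPM in untransfected replicates 1 to 3. The lowest value of each group came from the library that stood apart on the second component, and the remaining 4 lay within 51.89 to 54.05 TPM. The log2 fold was 0.02 (95% interval -0.25 to 0.28, adjusted p = 0.930 in limma), and -0.02 (adjusted p = 0.708) without those 2 libraries.

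Within the BTG family BTG1 and BTG2 went in opposite directions on deposited TPM, and the sums and shares given here were not tested. The summed level was 137.3 to 147.0 TPM in transfected and 134.6 to 159.1 TPM in untransfected libraries, which overlap. BTG1 made up 14.4% ± 0.559 (SD, n = 3) of the family in untransfected and 19.1% ± 0.611 in transfected cells, with no overlap between libraries. BTG2 made up 52.5% ± 2.72 and 46.3% ± 2.80, and transfected replicate 1 and untransfected replicate 1 were equal to 3 digits at 49.5%. BTG2 was the most abundant of the 3 in all 6 libraries.

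**Figure D3:**
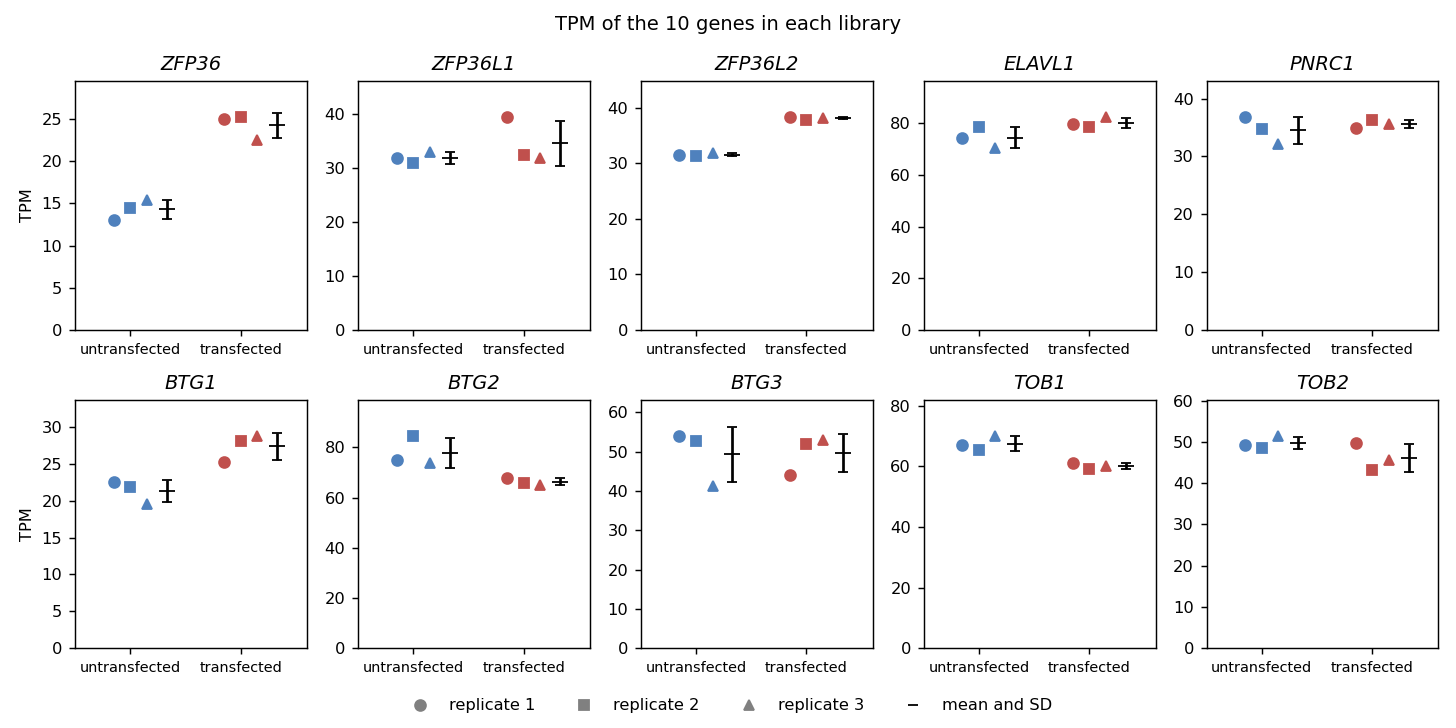
TPM of each gene in each library (axis from 0; symbols mark the replicate number, bars the mean and SD). Groups do not overlap for ZFP36, ZFP36L2, BTG1, BTG2 and TOB1, and BTG3 is lowest in transfected replicate 1 and untransfected replicate 3.

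TOB1 (chromosome 17, 50862223 to 50867978) encodes an adaptor that joins CCR4-NOT to the poly(A)-binding protein. Its level was 61.20, 59.26 and 60.09 TPM in transfected and 66.91, 65.29 and 70.07 TPM in untransfected replicates 1 to 3. All transfected values were lower, by at least 4 TPM, but the log2 fold of -0.16 (SE 0.054, 95% interval -0.29 to -0.04) did not pass by a narrow margin (adjusted p = 0.0557 in limma). It passed after median-ratio scaling (adjusted p = 0.0399), after quantile normalization (0.0272), when rescaled without mitochondrial and the most abundant genes (0.0252), when no filter was set on low values (0.0494) and without both libraries apart on the second component (0.0341). TOB1-AS1, transcribed from the opposite strand and overlapping TOB1, was higher in transfected cells, at 3.07, 2.58 and 3.44 TPM against 1.79, 2.32 and 1.92 TPM (log2 fold 0.42, adjusted p = 0.0346 in limma).

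TOB2 (chromosome 22, 41433492 to 41447023), the paralog of TOB1, was at 49.77, 43.10 and 45.53 TPM in transfected and 49.18, 48.62 and 51.50 TPM in untransfected replicates 1 to 3. Transfected replicate 1 lay inside the untransfected range and the other transfected libraries below it. The log2 fold of -0.11 (95% interval -0.27 to 0.05) did not pass (adjusted p = 0.259 in limma), and it was negative under all 16 alternatives. The processed pseudogene TOB2P1 was at 15.57, 17.29 and 15.80 TPM in transfected and 9.98, 11.02 and 9.35 TPM in untransfected replicates 1 to 3 (log2 fold 0.63, adjusted p = 0.00160 in limma), so reads shared between the copies would make the TOB2 value uncertain. TOB1 made up 56.6% ± 1.39 (SD, n = 3) of the summed TOB level in transfected and 57.5% ± 0.185 in untransfected cells, and these shares overlapped.

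PNRC1 (chromosome 6, 89080751 to 89085160), the decapping partner, was at 34.96, 36.25 and 35.68 TPM in transfected and 36.79, 34.72 and 32.09 TPM in untransfected replicates 1 to 3. The transfected values lay inside the untransfected range. The log2 fold was 0.05 (95% interval -0.11 to 0.20, adjusted p = 0.641 in limma). Its paralog PNRC2, a factor of nonsense-mediated decay and decapping, had 171.3 ± 10.6 TPM (SD, n = 3) in transfected against 171.3 ± 20.4 TPM in untransfected libraries.

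Levels of the 10 genes spanned less than a factor of 6. In untransfected cells the order by mean TPM was BTG2, ELAVL1, TOB1, TOB2, BTG3, PNRC1, ZFP36L1, ZFP36L2, BTG1 and ZFP36. Neighbours whose ranges over libraries overlapped were BTG2 and ELAVL1, TOB2 and BTG3, PNRC1 and ZFP36L1, and ZFP36L1 and ZFP36L2. In transfected cells ELAVL1 stood above BTG2 and ZFP36L2 above PNRC1 and ZFP36L1, and the neighbours with overlapping ranges were BTG3 and TOB2, PNRC1 and ZFP36L1, and BTG1 and ZFP36. ZFP36 had the lowest mean in both groups.

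Upstream sequence from RefSeq (GRCh38.p14) was matched for 8 of the 10 members; ZFP36L2 and ELAVL1 had no entry. Windows of 200 bases, from 250 to 51 bases before the annotated start, were searched on both strands for the cyclic AMP response element TGACGTCA, its shorter core TGACG (contained in it), the AP-1 element TGAGTCA, the EGR elements GCGTGGGCG and GCGGGGGCG, the NF-kB element, the CArG box bound by SRF, the E-box CACGTG and the TATA box TATAAA. The windows of ZFP36, BTG1 and BTG2 are shown because these 3 genes passed the test. For each of these 3, the start used for the window differs from the GENCODE start of the gene position given above. The BTG1 window, for example, reaches base 92145897, the GENCODE start of the gene. Capitals mark matches.
ZFP36 (chr19:39406597-39406796, plus strand): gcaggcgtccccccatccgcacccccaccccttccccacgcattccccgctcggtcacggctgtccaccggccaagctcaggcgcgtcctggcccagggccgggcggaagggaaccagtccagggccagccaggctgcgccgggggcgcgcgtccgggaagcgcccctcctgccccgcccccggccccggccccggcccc
BTG1 (chr12:92145897-92146096, minus strand): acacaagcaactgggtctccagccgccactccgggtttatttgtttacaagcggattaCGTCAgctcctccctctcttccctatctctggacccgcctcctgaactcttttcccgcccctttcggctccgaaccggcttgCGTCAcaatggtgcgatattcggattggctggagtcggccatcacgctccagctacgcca
BTG2 (chr1:203305269-203305468, plus strand): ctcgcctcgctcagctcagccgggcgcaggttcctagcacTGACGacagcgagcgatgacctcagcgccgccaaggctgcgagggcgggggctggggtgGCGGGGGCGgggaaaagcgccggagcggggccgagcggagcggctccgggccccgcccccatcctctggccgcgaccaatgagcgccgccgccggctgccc
BTG1, which rose, held 2 TGACG cores, and BTG2, which fell, held 1 such core and 1 GCGGGGGCG. ZFP36L1 and TOB1, which did not pass, had 2 windows each among the 10 searched, and 1 window of each held 1 TGACG. The ZFP36 window matched none of the motifs searched. Of 35116 annotated promoters 16.0% held TGACG and 3.26% GCGGGGGCG in the same window. A match shows only that the letters occur there.

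The genes most like ZFP36 and BTG2 in pattern were found by the root-mean-square difference of centred log2(TPM + 1) over the 6 libraries, among 10730 protein-coding genes whose mean reached 5 TPM in either group. For ZFP36 they were CREBBP, a histone acetyltransferase (difference 0.0533), ACTA2, smooth muscle actin (0.0538), and CELSR3, a cadherin receptor (0.0544). CREBBP was at 45.12, 43.63 and 40.61 TPM in transfected and 25.99, 26.59 and 27.53 TPM in untransfected replicates 1 to 3. For BTG2 they were DEXI (0.0165), the phosphatase gene PPM1H (0.0170) and BRAT1 (0.0186), and DEXI was at 11.80, 11.67 and 11.40 TPM against 13.54, 14.93 and 13.25 TPM. These are descriptions over 6 libraries in 2 groups.

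The CCR4-NOT complex, the deadenylase that ZFP36, BTG and TOB proteins bind, had 3 of 12 members higher and 0 lower, where 20% and 10.2% of all tested genes were called. The median log2 fold was 0.10, against 0.05 over all tested genes. CNOT4, a ubiquitin ligase associated with the complex, rose from 32.3 ± 1.22 to 47.7 ± 1.32 TPM (log2 fold 0.55, adjusted p = 0.000715 in limma; mean ± SD, n = 3 each here and below). CNOT10, a structural subunit, rose from 58.7 ± 2.87 to 81.6 ± 1.68 TPM (0.47). On deposited TPM the catalytic subunit genes CNOT7 (0.18, adjusted p = 0.1345 in limma) and CNOT8 (-0.17, 0.288) did not pass. CNOT6 (-0.20) and CNOT6L (0.09) did not pass either, and all of these were named after their values were seen. The scaffold gene CNOT1, at 158.9 ± 5.72 and 180.4 ± 4.78 TPM, passed narrowly (adjusted p = 0.0344) and did not under the 3 other scalings (0.0576 to 0.371) or without any 1 library other than untransfected replicate 3 (0.0627 to 0.124). The count of lower members was 3 with any of the 3 other scalings and when untransfected replicate 3 was left out.

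Of 11 genes for the PAN2-PAN3 and PARN deadenylases, NOCT, poly(A)-binding proteins and their partners, 2 were higher and 2 lower (20% and 10.2% of all genes), with a median of 0.09 (-0.03 after quantile normalization; 4 were higher after median-ratio scaling). NOCT, first described as a deadenylase and later as an NADP(H) phosphatase, rose from 10.3 ± 1.24 to 16.1 ± 0.288 TPM (0.60), and PABPC1, the main cytoplasmic poly(A)-binding protein, from 273.5 ± 6.72 to 333.2 ± 9.06 TPM (0.28). PABPN1, its nuclear counterpart, fell from 18.2 ± 0.841 to 14.2 ± 1.08 TPM and PABPC1L from 37.3 ± 1.32 to 31.9 ± 1.09 TPM. The PABPC1 call was lost after quantile normalization (adjusted p = 0.0702). PABPC1L was lost without any 1 transfected library or untransfected replicate 1 (0.0606 to 0.0838) and PABPN1 without transfected replicate 3 (0.0610) or untransfected replicate 1 (0.0571).

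Decapping and 5′ to 3′ decay genes were higher in 4 of 20, the same share as the 20% of all genes, with 0 lower (10.2% of all genes) and a median of 0.10. Both genes for the decapping activator DCP1 rose, DCP1B from 27.7 ± 0.494 to 44.8 ± 1.94 TPM (0.68) and DCP1A, which PNRC1 can bind, from 38.1 ± 1.18 to 56.4 ± 2.42 TPM (0.55). LSM14A, a P-body protein, rose from 36.6 ± 3.80 to 50.0 ± 2.22 TPM and the LSM ring gene LSM6 from 24.5 ± 3.01 to 30.8 ± 1.16 TPM. LSM6 was lost without any 1 transfected library or untransfected replicate 2 (adjusted p = 0.0544 to 0.104), and the lower count was 2 with each of the 3 other scalings and 1 when untransfected replicate 3 was left out.

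The exosome and SKI complex, which degrade RNA from the 3′ end, had 7 of 17 members higher and 1 lower, with a median of 0.15, where 20% and 10.2% of all genes were called. The exonuclease gene DIS3L rose from 44.0 ± 5.38 to 63.8 ± 2.89 TPM (0.53), EXOSC5 from 36.9 ± 1.02 to 53.7 ± 2.83 TPM (0.53), the nuclear helicase gene MTREX from 75.2 ± 7.74 to 106.5 ± 6.55 TPM (0.50) and EXOSC9 from 72.0 ± 6.35 to 97.3 ± 7.38 TPM (0.43). SKIC2, the SKI helicase gene, was the lower member at 39.1 ± 2.00 and 32.6 ± 0.449 TPM and was named after its values were seen. Its call was lost without any 1 library other than untransfected replicate 3 (adjusted p = 0.0517 to 0.0724), and the lower count was 2 with each of the 3 other scalings.

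Of 26 tested genes for other proteins that bind or act through 3′ untranslated regions, 8 were higher and 1 lower (20% and 10.2% of all genes), with a median of 0.11. The lower gene was ZC3H12A, which encodes the endonuclease Regnase-1, which went from 5.99 ± 0.320 to 4.23 ± 0.147 TPM (-0.42, adjusted p = 0.00867 in limma). YTHDF2, the reader of N6-methyladenosine that recruits CCR4-NOT, rose from 108.1 ± 10.8 to 140.7 ± 7.82 TPM (0.38), CPEB2 from 5.45 ± 0.724 to 7.29 ± 0.602 TPM and SAMD4A from 7.15 ± 0.970 to 9.25 ± 0.208 TPM. The higher count fell to 2 and 3 without transfected replicates 2 and 3 and to 4 without untransfected replicate 1. With replicate number as block, CPEB2 and SAMD4A lost their calls (adjusted p = 0.063 and 0.0702 in limma). HNRNPD (0.0779), CELF2 (0.0573) and CPEB4 (0.0638), named after their values were seen, lost theirs too. SAMD4A was also lost without both libraries apart on the second component (0.0524). YTHDF2 lost its call without transfected replicate 2 (adjusted p = 0.0502), CPEB2 without transfected replicate 2 or 3 or untransfected replicate 1 or 3 (0.0740 to 0.124), and SAMD4A without any 1 library but untransfected replicate 1 (0.0574 to 0.113).

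A list of 16 regulators of ZFP36 proteins held p38 kinases, their activators and the kinases MK2 and MK3, which phosphorylate ZFP36, the 14-3-3 proteins that bind it once phosphorylated, and catalytic subunits of the phosphatase PP2A. Of these genes 4 were lower and 1 higher (10.2% and 20% of all genes), with a median of -0.03. MAP2K6, an upstream kinase of p38, fell from 5.45 ± 0.493 to 3.37 ± 0.376 TPM (-0.56), MAPK12, p38 gamma, from 21.9 ± 0.520 to 15.6 ± 0.790 TPM (-0.46) and MAPK11, p38 beta, from 13.3 ± 0.407 to 9.85 ± 0.561 TPM (-0.40). Of the other kinase genes, MAPK14 was at 31.7 ± 4.41 in untransfected and 30.2 ± 2.57 TPM in transfected cells (-0.06, adjusted p = 0.707 in limma). MAPK13 (-0.09), MAP2K3 (-0.03) and MAPKAPK3 (0.14) did not pass either, and all of these were named after their values were seen. MAPKAPK2, which encodes MK2 and was named after its values were seen, was at 35.9 ± 1.98 and 31.1 ± 1.01 TPM (adjusted p = 0.0489) and lost its call without any 1 library other than untransfected replicate 3 (0.0679 to 0.153). YWHAE, a 14-3-3 gene, rose from 574.1 ± 35.1 to 701.2 ± 29.7 TPM (0.29), a call lost without transfected replicate 2 (0.0568) or 3 (0.0626), and the higher count was 2 without untransfected replicate 3 and 4 without both libraries apart on the second component.

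**Figure D4:**
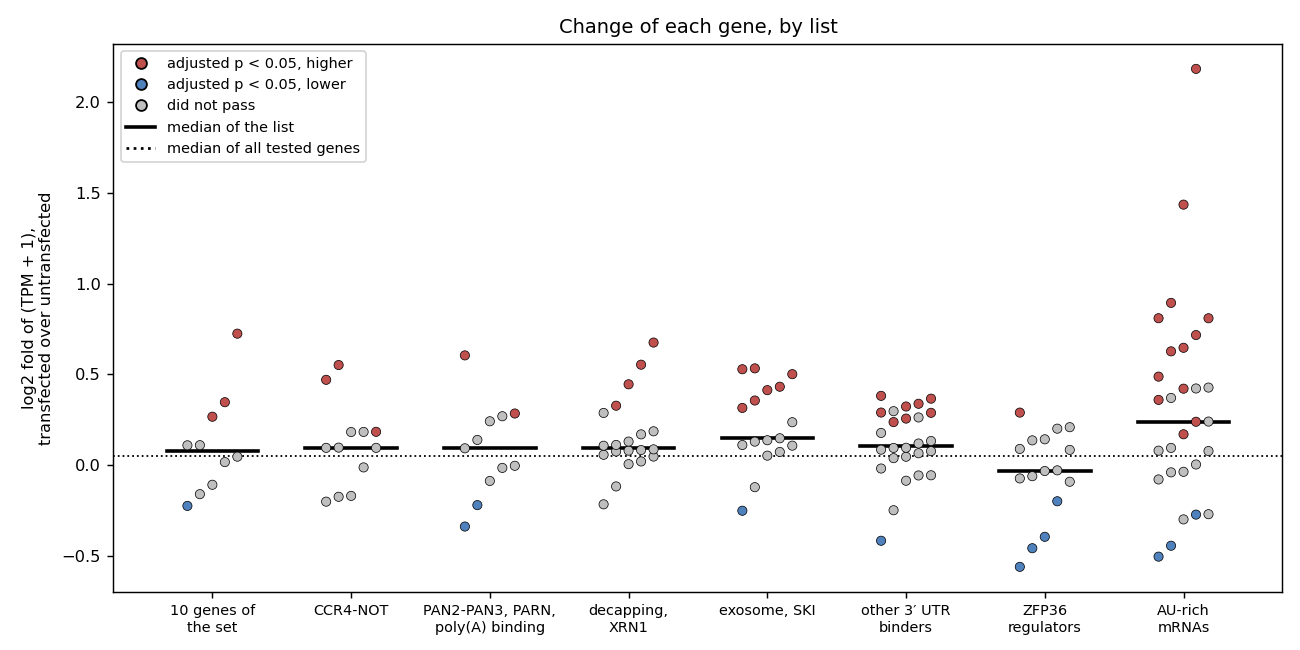
Log2 fold of (TPM + 1) of each tested gene in the 10-gene set and in 7 lists of related genes, with each list's median as a bar and the median of all tested genes (0.05) dotted. List medians run from -0.03 for the regulators of ZFP36 proteins to 0.24 for AU-rich mRNAs.

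Textbook mRNAs with AU-rich elements, the class of transcripts that ZFP36 and ELAVL1 act on, had 13 higher and 3 lower genes of 29 tested (20% and 10.2% of all genes), with a median log2 fold of 0.24. Many of them are immediate-early or inflammatory genes. The list was chosen with earlier results of these data known, so its counts are a description and were not tested. EGR1 (14.6 ± 2.10 in untransfected, 69.6 ± 7.25 TPM in transfected cells, log2 fold 2.18) and FOS (2.41 ± 0.741 and 8.12 ± 0.959 TPM, 1.44) changed most. FOSB rose from 1.38 ± 0.294 to 3.39 ± 0.0513 TPM (0.89) and LIF from 3.95 ± 0.295 to 7.67 ± 0.410 TPM (0.81). Lower genes, named after their values were seen, included the cyclin gene CCND1 (56.0 ± 0.789 in untransfected and 46.2 ± 1.34 TPM in transfected cells) and the phosphatase gene DUSP6 (3.59 ± 0.302 and 2.37 ± 0.318 TPM). DUSP6 lost its call without transfected replicate 2 or 3 or untransfected replicate 1 or 2 (adjusted p = 0.0562 to 0.0747), and the lower count was 5 to 6 with the 3 other scalings. HIF1A and PIM3, higher genes also named after their values were seen, were less firm. HIF1A (adjusted p = 0.0495 in limma) was lost under the 3 other scalings (0.119 to 0.438) and without any 1 library (0.0645 to 0.169). PIM3 was lost under the 3 other scalings (0.0691 to 0.112). EGR1, FOS and LIF kept their calls under every alternative.

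The same counts were made across the transcriptome for genes with the nonamer shown above for ZFP36. Of 1109 tested genes with at least 1 copy, 21.3% were higher and 7.39% lower, against 20.6% and 10.98% of 11593 genes without it. Their median log2 folds were 0.07 and 0.04, and for the 256 genes with 2 or more copies the median was 0.05. Genes with the nonamer had longer 3′ untranslated regions, a median of 2879 bases against 1018, and the part of this difference in length was not tested. The classes were drawn up after the members' values were seen and are given without a test.

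**Figure D5:**
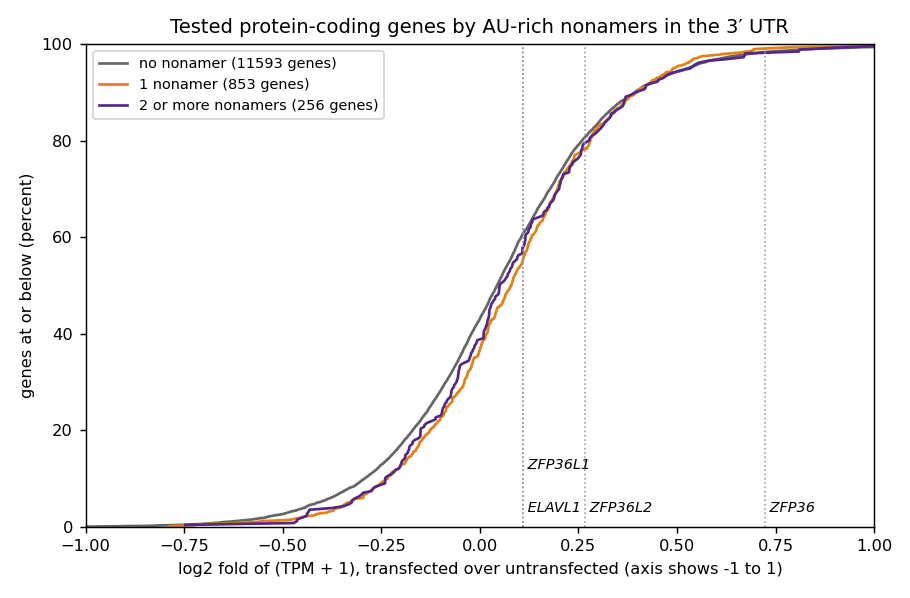
Cumulative percent of tested protein-coding genes by log2 fold of (TPM + 1), for genes with 0, 1 and 2 or more AU-rich nonamers in the 3′ untranslated region, with the 4 members that hold the nonamer marked. Medians are 0.04, 0.08 and 0.05, and ZFP36 sits in the upper tail.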

How the data were processed

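RNA was sequenced from 6 libraries (3 transfected, 3 untransfected) with a stranded total RNA kit and 75 nt paired reads, per the labels' protocols. The authors deposited TPM per gene. Alignment is listed with STAR to GRCh38, per the submitters' processing notes. How reads were counted, with which annotation and whether by strand, is not given in the sources used here. Of 18298 rows, 134 repeated an Ensembl ID with identical values and were dropped. The TPM of each library add up to the same total over the listed genes, so a rise of abundant transcripts lowers the rest, and depth is unknown.

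Groups came from the sample titles. Genes reaching 1 TPM in 3 libraries (16145) were fitted as log2(TPM + 1) in limma 3.58.1 (R 4.3.3; group as the only term, moderated with a mean-variance trend), with Benjamini-Hochberg adjustment over all of them and a threshold of 0.05. Folds on this scale understate changes of low genes; ratios quoted as "-fold" are of mean TPM. The fit was tested on simulated data. Gene locations and 3′ untranslated regions (basic principal transcript, longest) came from GENCODE 29 on GRCh38, and symbols of list genes from a name table that matched 18139 IDs.

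The members and lists were chosen with earlier results of these data known. All members are named; from each list up to 4 genes that passed, by size of change. Alternatives were pseudocounts of 0.1 and 5, no filter and one of 5 TPM, median-ratio and quantile scaling, a rescaling that left out mitochondrial genes and the 20 most abundant, a fit without the variance trend, one with replicate number as block, each library left out, and, added after seeing the data, the 2 libraries apart on the second component left out. One gene of the AU-rich mRNA list is counted but not reported by name here.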

Additional observations from a re-analysis of the deposited data

How the results depend on the processing

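The count of 3 higher members became 2 without transfected replicate 2 or 3 and was otherwise unchanged over the 16 alternatives; with single libraries left out it was 2 to 3. The count of 1 lower member was 2 with no filter on low values, after median-ratio scaling, quantile normalization, rescaling without mitochondrial and the 20 most abundant genes, and without both libraries apart on the second component, where TOB1 joined BTG2. It was 0 with no variance trend and with the replicate block, and 0 to 1 with single libraries left out. Over all tested genes 3236 were higher and 1644 lower. The lower count was 2874, 2887 and 3241 under the 3 other scalings in that order, and single libraries left out gave 1820 to 2955 higher and 965 to 2027 lower. The replicate numbers did not pair the libraries (correlation of same-numbered deviations -0.184, 0.107 and -0.163). The block gave 2392 higher and 1137 lower genes. It took the BTG2 call (adjusted p = 0.0887) and left ZFP36, ZFP36L2 and BTG1 called. The signs of 3 members that did not pass changed. BTG3 (0.02) was -0.0503, -0.0656 and -0.0747 under the 3 other scalings, -0.105 to 0.0986 with single libraries left out (below 0 without transfected replicate 2 or 3 or untransfected replicate 3), and -0.0228 without both libraries apart. PNRC1 (0.05) was -0.0200, -0.00842 and -0.0441 under those scalings and -0.00449 to 0.0913 with single libraries left out (below 0 without untransfected replicate 3). ELAVL1 (0.11) was -0.0024 after quantile normalization. The cause of these changes was not tested. Family shares were recomputed only after median-ratio scaling, which cannot change them, and quantile normalization, where they moved by less than 1 SD. Depth is unknown, so it sets no stated limit.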

Other observations

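ALB, the albumin gene and 1 of the markers of other cell types, stayed under the filter on low values but was at 1.13, 0.73 and 0.96 TPM in transfected replicates 1 to 3 and 0.05, 0.21 and 0.10 TPM in untransfected replicates 1 to 3, so that the groups did not overlap. BTG1-DT, which overlaps the start of BTG1 on the opposite strand, was at 0.24, 0.37 and 0.27 TPM in transfected and 0.15, 0.21 and 0.17 TPM in untransfected replicates 1 to 3. Both were named after their values were seen.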
